A study of Caenorhabditis elegans with 9 samples.

Results

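The *lipl* genes of *Caenorhabditis elegans* encode acid lipases related to human lysosomal acid lipase. All 8 listed genes, *lipl-1* to *lipl-8*, were taken by WormBase name from a series table of 20306 gene entries, whatever their values, and 7 of them could be tested. RNA was sequenced from whole animals at the fourth larval stage. One group was wild type whose mothers had received vehicle. A second, again with maternal vehicle, was mutant in *nhr-114*, which encodes a nuclear receptor related to HNF4 (allele gk849), and the last had that allele and maternal vitamin B12 at 8 µM. Each group had 3 libraries. There was no wild-type group with B12, and both mutant groups share 1 allele, so the B12 comparison applies to this mutant alone. Separate cultures are not named for the replicates, and the p-values therefore measure the spread of these libraries, which may be technical.

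Lysosomal acid lipases cleave triglycerides and cholesteryl esters that reach the lysosome by endocytosis or by autophagy of lipid droplets, and release free fatty acids. In *C. elegans* the intestine is the main site of fat storage and breakdown. There the transcription factor HLH-30, the counterpart of mammalian TFEB, activates several *lipl* genes when food is withdrawn, and the factor MXL-3 represses them in fed animals. LIPL-4 is the best described member. It is raised in animals without a germline, depends on DAF-16, and acts through a lipid messenger that the binding protein LBP-8 carries to the nuclear receptors NHR-49 and NHR-80.

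Total estimated counts ran from 14461993 to 16659895 per library, and 14795 genes passed the filter on low counts. *nhr-114* itself had 6954, 8027 and 7436 counts in wild type, 3, 4 and 4 in mutant vehicle, and 3, 2 and 4 in mutant B12. Tissue marker lists differed between the groups. The 66 tested spermatogenesis genes summed to 1084 to 1908 CPM (counts scaled to a common library size, here with TMM factors) in wild type, 346.5 to 845.4 in mutant vehicle and 1855 to 2281 in mutant B12, with 52 called lower and 0 higher in mutant vehicle than in wild type. The 19 tested intestine genes summed to 5028 to 5483, 6288 to 7406 and 4505 to 4988 CPM in the same order of groups, with 14 called higher and 1 lower in mutant vehicle. Over all tested genes 18.3% were called higher and 18.3% lower in mutant vehicle than in wild type. In bulk RNA fewer cells of a type and less RNA per cell cannot be told apart. Fits with either tissue level as a covariate are given below. Both levels differ between the groups themselves, so the part of either tissue in the *lipl* results could not be separated.

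In the WBcel235 annotation all 8 genes are protein coding, 7 on chromosome V and 1, *lipl-7*, on chromosome IV. *lipl-5* (sequence name ZK6.7, WBGene00022642) lies at chromosome V, 385746 to 387740, on the plus strand. *lipl-2* (F46B6.8, WBGene00009773) lies at chromosome V, 9791567 to 9793241, plus strand, and *lipl-1* (F54F3.3, WBGene00010062) at chromosome V, 12919986 to 12921692, plus strand. *lipl-3* (R11G11.14, WBGene00020016) lies at chromosome V, 521595 to 524218, minus strand, and overlaps *srw-107* on the same strand, which had 0 counts in every library. *lipl-4* (K04A8.5, WBGene00019376) lies at chromosome V, 6550171 to 6552186, plus strand, and overlaps 2 non-coding genes of the opposite strand. No source used here states a stranded protocol, and reads of *lipl-4* and of those 2 genes cannot be told apart. The remaining genes are *lipl-6* (Y57E12B.3, WBGene00021963; chromosome V, 6931475 to 6934312, minus strand), *lipl-7* (F01G10.7, WBGene00008510; chromosome IV, 10239278 to 10241823, minus strand) and *lipl-8* (Y50E8A.7, WBGene00013050; chromosome V, 14745684 to 14748708, minus strand). Summed per gene, the estimated counts of all 8 were whole numbers within 0.001 in every library, so no fractional assignment of reads between a *lipl* gene and another gene was seen.

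*lipl-5* was by far the most abundant member in every group. On the TPM scale, which divides by transcript length and allows levels of different genes to be compared, it stood at 191.2 ± 22.6 in wild type, 723.1 ± 86.1 in mutant vehicle and 488.6 ± 24.0 in mutant B12 (SD, n = 3 each). It made up 78.6% to 83.2% of the summed *lipl* TPM in wild type, 93.1% to 93.4% in mutant vehicle and 84.5% to 87.8% in mutant B12. Without a TMM factor, the summed TPM of the other members was 42.6 to 45.5 in wild type, 48.0 to 59.9 in mutant vehicle and 67.5 to 85.6 in mutant B12. Within that remainder the order of the genes differed between groups.

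In wild type *lipl-7* (15.1 ± 1.60 TPM) and *lipl-6* (13.9 ± 3.87) came next and their ranges overlapped. *lipl-4* (6.07 ± 1.11), *lipl-2* (4.42 ± 1.81), *lipl-3* (2.82 ± 0.851) and *lipl-1* (2.09 ± 0.235) followed, each overlapping its neighbour in that order. In mutant vehicle *lipl-2* was second at 24.6 ± 5.38 TPM, ahead of *lipl-6* (12.4 ± 0.719) and *lipl-7* (10.8 ± 0.870) without overlap. *lipl-1* (2.25 ± 0.807) and *lipl-4* (1.60 ± 0.0410) overlapped, and *lipl-3* was lower at 0.730 ± 0.0859 TPM. In mutant B12 *lipl-2* was again second at 47.7 ± 7.39 TPM, and *lipl-1*, at 10.7 ± 0.583, overlapped *lipl-7* at 11.1 ± 1.04. *lipl-6* (6.15 ± 1.77), *lipl-4* (1.11 ± 0.225) and *lipl-3* (0.285 ± 0.0249) followed without overlap between neighbours.

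**Figure D1:**
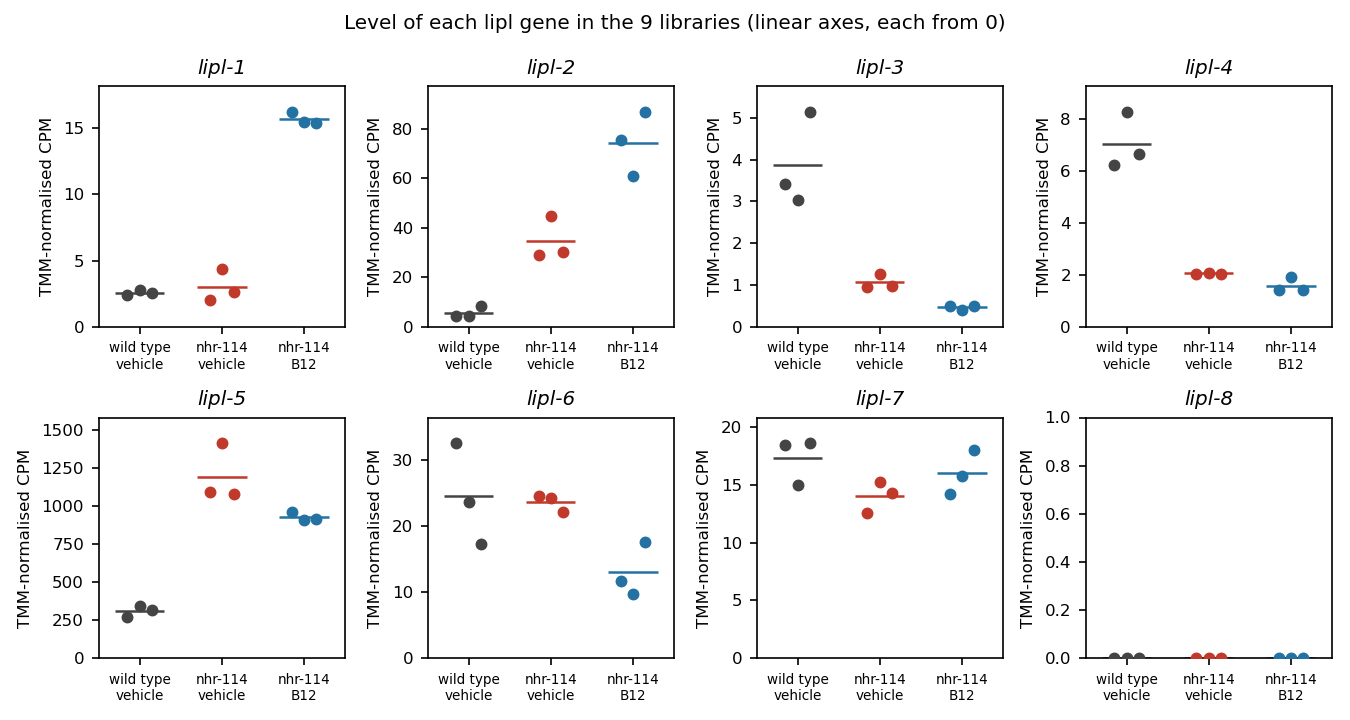
Level of each *lipl* gene in TMM-normalised CPM (vertical axes, linear from 0, with a different scale in each panel) in the 3 groups (horizontal axes); points are libraries and lines are group means. *lipl-2* and *lipl-5* are higher in both mutant groups than in wild type, *lipl-1* is higher in mutant B12, *lipl-3* and *lipl-4* are lower in both mutant groups, and *lipl-8* is at 0 throughout.

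The comparison of mutant vehicle with wild type addressed the effect of the *nhr-114* mutation in the absence of supplied B12. The family moved in both directions: *lipl-2* and *lipl-5* rose, *lipl-3* and *lipl-4* fell, and *lipl-1*, *lipl-6* and *lipl-7* were not called. Thus 4 of 7 tested members were called by edgeR's quasi-likelihood test (Benjamini-Hochberg adjusted p under 0.05 over all 14795 genes), where 36.6% of all tested genes were called. Calls in each direction numbered 2, against 18.3% of all genes higher and 18.3% lower. The median log2 fold change of the 7 was -0.05 and that of all genes 0.01. The libraries did not overlap for those 4 members, as was so for 50.8% of all genes.

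*lipl-5*, an intestinal lipase gene known to respond to fasting, had 270.5, 343.3 and 315.9 CPM in wild type and 1089, 1410 and 1076 CPM in mutant vehicle. Every mutant library was above every wild-type library. The fitted difference was a 3.84-fold rise (log2 1.94 ± 0.12 SE, edgeR adjusted p = 2.25e-06). The intestine marker list rose with it, from a mean summed level of 5182 to 6743 CPM.

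*lipl-2* had 4.31, 4.49 and 8.22 CPM in wild type and 28.9, 44.9 and 30.1 in mutant vehicle. Wild-type replicate 3 was the highest of its group, but the groups lay far apart. The rise was 6.09-fold (log2 2.61 ± 0.28 SE, edgeR adjusted p = 0.000124), larger than that of 98.7% of tested genes. *lipl-1* did not follow it: its levels were 2.36, 2.79 and 2.54 CPM in wild type and 2.05, 4.33 and 2.65 in mutant vehicle. These groups overlapped, the highest value being mutant vehicle replicate 2 (log2 0.23 ± 0.26 SE, edgeR adjusted p = 0.524, and -0.12 without that library).

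*lipl-4*, the longevity-linked member, had 6.20, 8.26 and 6.63 CPM in wild type and 2.05, 2.07 and 2.04 in mutant vehicle. All mutant vehicle libraries were below all wild-type libraries and lay close together. The fall was 3.42-fold (log2 -1.77 ± 0.22 SE, edgeR adjusted p = 0.000192). *lipl-3* rested on few reads, with 58, 50 and 87 counts in wild type and 14, 20 and 16 in mutant vehicle, which is 3.43, 3.04 and 5.15 CPM against 0.955, 1.26 and 0.987. The groups again did not overlap, and the fall was 3.61-fold (log2 -1.85 ± 0.29 SE, edgeR adjusted p = 0.000848). The spermatogenesis list was lower here too, with 52 of 66 called lower (18.3% of all genes) and a median log2 of -1.39. In mutant B12 against wild type that list had 2 called higher and 0 lower (median 0.38). *lipl-3* and *lipl-4* were at log2 -3.04 and -2.15 there. The part of the spermatogenesis level in these 2 genes could not be separated.

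*lipl-6* had 32.6, 23.7 and 17.3 CPM in wild type and 24.6, 24.3 and 22.1 in mutant vehicle. The wild-type libraries spanned the mutant ones (log2 -0.05 ± 0.25 SE, edgeR adjusted p = 0.891, and 0.19 without wild-type replicate 1). *lipl-7* had 18.4, 15 and 18.6 CPM in wild type and 12.6, 15.2 and 14.3 in mutant vehicle. Wild-type replicate 2 was within the mutant range, and the difference was not called (log2 -0.31 ± 0.14 SE, edgeR adjusted p = 0.120). Its TPM, which carries no TMM factor, was 13.4 to 16.6 in wild type and 9.79 to 11.33 in mutant vehicle. The share of all genes whose groups lie apart on that scale was not computed. *lipl-8* had 0 counts in all 9 libraries, and a count of 0 allows up to 3 counts, 0.180 to 0.207 CPM in a library and 0.0211 CPM over all 142327216 counts. This floor covers counting error only, and *lipl-8* is not discussed further.

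The 4 calls were kept when each library was left out in turn, with 4 called each time. With the spermatogenesis level as a covariate, 1 of 7 members was called, *lipl-5*, and with the intestine level again *lipl-5* alone, while calls over all genes went from 5422 to 635 and to 186 of 14795. The log2 fold changes with these covariates, in that order, were 2.25 and 1.56 for *lipl-2* (reported 2.61), -1.74 and -2.23 for *lipl-3* (-1.85) and -1.62 and -2.06 for *lipl-4* (-1.77). Both levels differ between the groups themselves, which inflates the variance of the covariate's own estimate 7.16-fold and 11.5-fold. Over all alternatives other than leaving out a library, the log2 fold change of *lipl-5* ran from 1.11 to 2.01 (reported 1.94). Its adjusted p in those edgeR, DESeq2 and limma fits was at most 0.0354.

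**Figure D2:**
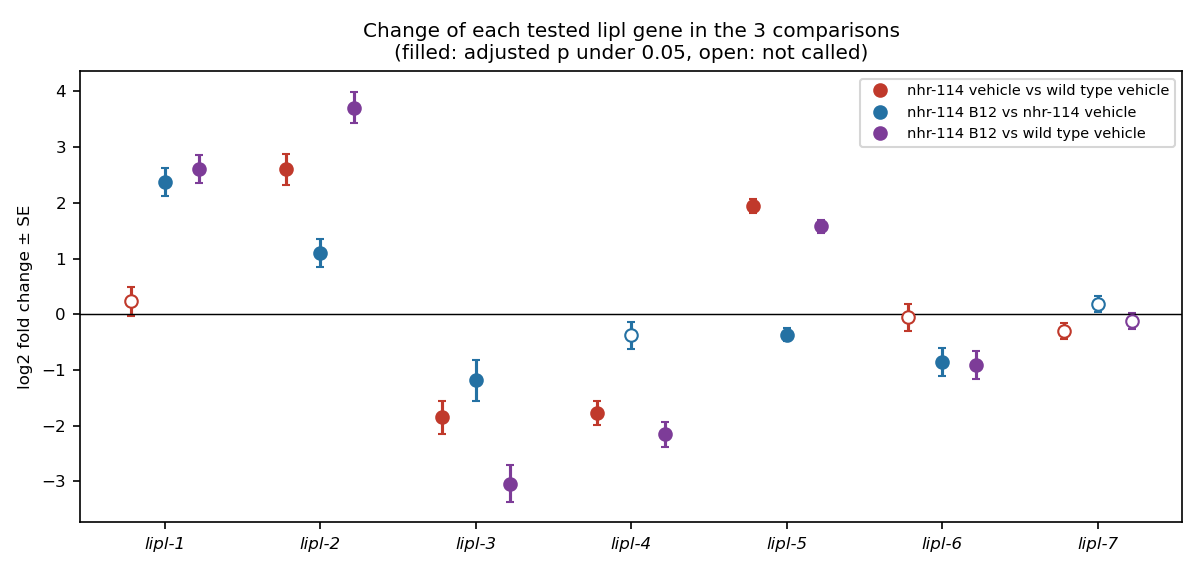
Fitted log2 fold change with its standard error (vertical axis) of the 7 tested *lipl* genes (horizontal axis) in the 3 comparisons (colours), each from 3 against 3 libraries. Filled points passed an adjusted p of 0.05; *lipl-2* lies above 0 in each comparison, *lipl-3* below 0 in each, and *lipl-5* is high against wild type in both mutant groups.

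The comparison of mutant B12 with mutant vehicle addressed the effect of maternal B12 on mutant offspring. *lipl-1* and *lipl-2* rose and *lipl-3*, *lipl-5* and *lipl-6* fell, so that 5 of 7 tested members were called, where 46.4% of all genes were called (22.6% higher and 23.8% lower). The libraries did not overlap for these 5 and for *lipl-4*, as was so for 59.1% of all genes, 32.1% with mutant B12 lower. The median of the 7 was -0.37 and that of all genes -0.04 on the log2 scale. This comparison shares the mutant vehicle libraries with the previous one, so the 2 sets of values are not independent of each other.

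*lipl-1* showed the largest difference of the family here. Its level was 16.22, 15.42 and 15.38 CPM in mutant B12, against 2.05, 4.33 and 2.65 in mutant vehicle. The B12 libraries lay close together and far above all others. The rise was 5.18-fold (log2 2.37 ± 0.24 SE, edgeR adjusted p = 6.38e-05), larger than that of 97.6% of tested genes.

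*lipl-2* had 75.4, 60.9 and 86.9 CPM in mutant B12 and 28.9, 44.9 and 30.1 in mutant vehicle. The lowest B12 library was still above the highest vehicle library. It rose 2.15-fold (log2 1.103 ± 0.248 SE, edgeR adjusted p = 0.00550), on top of its higher level in the vehicle-treated mutant. The spermatogenesis list rose as well, with 60 of 66 genes called higher and 0 lower. The intestine list fell, with 14 of 19 called lower and 2 higher. Over all genes 22.6% were higher and 23.8% lower. In mutant vehicle against wild type, where *lipl-2* rose 6.09-fold, 52 of 66 spermatogenesis genes were lower and 0 higher. There 14 of 19 intestine genes were higher and 1 lower, against 18.3% of all genes in each direction.

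*lipl-5* had 956.6, 906.4 and 911.8 CPM in mutant B12 and 1089, 1410 and 1076 in mutant vehicle. The groups did not overlap, but the change was small, a 1.29-fold fall (log2 -0.37 ± 0.12 SE, edgeR adjusted p = 0.0285). It was not called with upper quartile scaling (log2 -0.29, adjusted p = 0.0571) or without the low-count filter (-0.32, adjusted p = 0.0572). Without mutant vehicle replicate 2, the highest library, it was -0.23 (edgeR adjusted p = 0.119), and without B12 replicates 1, 2 or 3 the adjusted p was 0.0527, 0.0854 and 0.0648.

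*lipl-3* had 8, 6 and 7 counts in mutant B12 and 14, 20 and 16 in mutant vehicle, equal to 0.488, 0.413 and 0.489 CPM against 0.955, 1.26 and 0.987. All B12 libraries were lower, though each value rests on 20 counts or fewer. The fall was 2.28-fold (log2 -1.19 ± 0.36 SE, edgeR adjusted p = 0.0209). Without mutant vehicle replicate 2 the adjusted p was 0.0692, and without B12 replicate 2 it was 0.0649.

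*lipl-6* had 11.7, 9.78 and 17.7 CPM in mutant B12 and 24.6, 24.3 and 22.1 in mutant vehicle. B12 replicate 3 stood nearest to the vehicle libraries, and the groups did not overlap. The fall was 1.81-fold (log2 -0.86 ± 0.25 SE, edgeR adjusted p = 0.0182), with an adjusted p of 0.0649 without B12 replicate 1 and also without B12 replicate 2. *lipl-4* had 1.40, 1.93 and 1.40 CPM in mutant B12, each below the 2.04 to 2.07 CPM of mutant vehicle, but was not called (log2 -0.38 ± 0.24 SE, edgeR adjusted p = 0.224). *lipl-7* had 14.2, 15.8 and 17.96 CPM in mutant B12, overlapping mutant vehicle, and was not called either (log2 0.19 ± 0.14 SE, adjusted p = 0.314).

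The count of 5 fell to 3 without mutant vehicle replicate 2 or B12 replicate 1 and to 2 without B12 replicate 2, when *lipl-1* and *lipl-2* were called. With the spermatogenesis level as a covariate 1 member, *lipl-1*, was called, and with the intestine level as a covariate edgeR called 0, with 3 of 7 at an unadjusted p under 0.05. Calls over all genes went from 6866 to 138 and to 39. The log2 fold changes with these covariates, in that order, were 1.56 and 2.27 for *lipl-2*, -1.33 and -0.77 for *lipl-3*, -0.12 and 0.57 for *lipl-5* and -0.0442 and -1.39 for *lipl-6*, and that of *lipl-1* with the intestine level was 3.81 (edgeR adjusted p = 0.0658).

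The comparison of mutant B12 with wild type asked how far the *lipl* genes of the B12-supplied mutant still differed from wild type. Here 6 of 7 tested members were called, where 13.4% of all tested genes were called. *lipl-1*, *lipl-2* and *lipl-5* rose (7.28% of all genes were higher) and *lipl-3*, *lipl-4* and *lipl-6* fell (6.13% were lower). The median of the 7 was -0.12, beside -0.00 for all genes, since the members moved in both directions. These fits reuse libraries of both earlier comparisons. For 5 of the 6, *lipl-6* excepted, the groups did not overlap, as in 31.2% of all genes (15.3% with mutant B12 lower).

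*lipl-2*, from 5.68 ± 2.21 to 74.4 ± 13 CPM (SD, n = 3), rose 13.1-fold (log2 3.71 ± 0.28 SE, edgeR adjusted p = 4.55e-05), more than 99.8% of tested genes. *lipl-1*, from 2.57 ± 0.216 to 15.7 ± 0.475 CPM, rose 6.09-fold (log2 2.61 ± 0.25 SE, edgeR adjusted p = 9.67e-05). *lipl-5*, from 309.9 ± 36.7 to 924.9 ± 27.5 CPM, rose 2.98-fold (log2 1.58 ± 0.12 SE, edgeR adjusted p = 2.30e-05). For these 3 genes each B12 library was above each wild-type library. The intestine list summed to 4744 CPM on average in mutant B12 and 5182 in wild type. The part of the intestine level in that of *lipl-5* could not be separated.

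*lipl-3* fell 8.22-fold, from 195 counts summed over wild type to 21 over mutant B12 (log2 -3.04 ± 0.33 SE, edgeR adjusted p = 0.000268). *lipl-4* fell 4.45-fold, from 7.03 ± 1.09 to 1.58 ± 0.305 CPM (log2 -2.15 ± 0.23 SE, edgeR adjusted p = 0.000212). Both groups of libraries were apart for both genes. *lipl-6* passed narrowly, at 1.88-fold lower (log2 -0.91 ± 0.25 SE, edgeR adjusted p = 0.0391), although B12 replicate 3 at 17.7 CPM was above wild-type replicate 3 at 17.3 CPM. Its call was lost with 6 of the 9 libraries left out one at a time, wild-type replicates 1 and 2 (adjusted p = 0.0915 and 0.0835), mutant vehicle replicates 2 and 3 (0.0505 and 0.0574) and B12 replicates 1 and 2 (0.123 and 0.119). It was also lost in a fit of the 6 compared libraries (0.0735) and with replicate number as a block (-0.90, adjusted p = 0.0755). *lipl-7* was not called (log2 -0.12 ± 0.14 SE, edgeR adjusted p = 0.639). The other 5 calls held with either tissue level as a covariate.

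*lipl-5* was the member with more than 1 quantified transcript, ZK6.7a and ZK6.7b. In the WBcel235 annotation ZK6.7a is protein coding and ZK6.7b is listed as non-coding. Exon 5 of ZK6.7b starts at 387404, where that of ZK6.7a starts at 387391, and the bases of ZK6.7b all lie within ZK6.7a. The quantified models were not these: they were 1621 bases (ZK6.7a) and 1245 bases (ZK6.7b) long, where the annotated ones are 1262 and 1199. ZK6.7b took 21.4%, 5.60% and 7.63% of *lipl-5* counts in wild type, 26.6%, 23.1% and 25.4% in mutant vehicle and 12.8%, 14.7% and 13.01% in mutant B12. Wild-type replicate 1 stood apart from the other 2 wild-type libraries and near mutant vehicle, and each B12 library was below each mutant vehicle library. Wilson 95% intervals of these shares were 1.04 to 2.38 percentage points wide and cover counting error only.

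Mean shares were 11.6 ± 8.61%, 25.1 ± 1.81% and 13.5 ± 1.06% (SD, n = 3). The difference of 13.5 percentage points between mutant vehicle and wild type and that of -11.6 between mutant B12 and mutant vehicle each had p = 0.1 in an exact two-sided permutation test, the smallest p that 3 against 3 libraries can give (0.15 adjusted over 3 comparisons). Mutant B12 and wild type overlapped (exact permutation p = 0.8). By level, ZK6.7b went from 33.8 ± 21.1 to 296.5 ± 26.5 and 124.6 ± 7.64 CPM, and ZK6.7a from 276.1 ± 57.4 to 895.0 ± 164.0 and 800.3 ± 31.3 CPM, in the order wild type, mutant vehicle, mutant B12.

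An edgeR fit of 20113 transcripts, chosen after seeing the data, called both transcripts higher in mutant vehicle than in wild type (23.1% of transcripts called), ZK6.7a by log2 1.65 ± 0.18 and ZK6.7b by 3.102 ± 0.378 (adjusted p = 0.000928 and 0.00142). With B12, ZK6.7b fell (log2 -1.18 ± 0.35, edgeR adjusted p = 0.0378; 29.1% of transcripts called), and ZK6.7a was not called (-0.09 ± 0.18, adjusted p = 0.747). That fall of ZK6.7b lost its call when any 1 of the 6 mutant libraries was left out (adjusted p = 0.0759 to 0.102). Over all omissions of 1 library, wild type included, its log2 was -1.29 to -1.16 and its lowest edgeR adjusted p 0.000868. Against wild type both were higher in mutant B12 (6.83% called), ZK6.7a by 1.56 ± 0.18 and ZK6.7b by 1.92 ± 0.36 (edgeR adjusted p = 0.00343 and 0.0215). Leaving out 1 library moved this value of ZK6.7b between 1.64 and 2.54, the highest without wild-type replicate 1. It was then not called without wild-type replicates 2 or 3, mutant vehicle replicate 3 or any 1 of the B12 libraries (adjusted p = 0.0521 to 0.0682). The quantifier divides reads between these overlapping transcripts by its model, and the error of that division is not in these values.

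**Figure D3:**
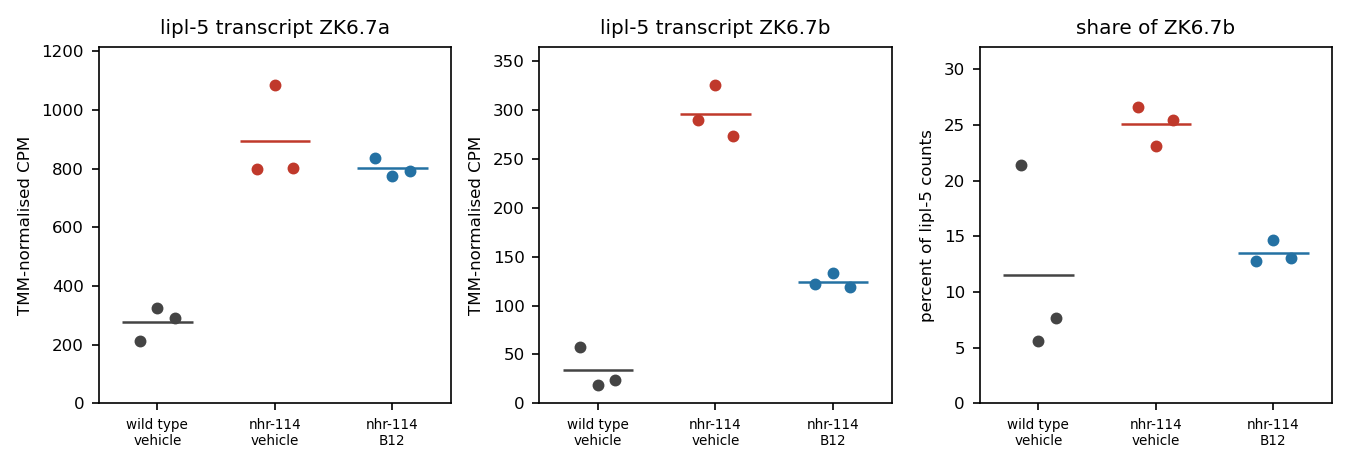
Levels of the *lipl-5* transcripts ZK6.7a and ZK6.7b (TMM-normalised CPM, linear axes from 0) and the share of *lipl-5* counts given to ZK6.7b (percent) in each group; points are libraries and lines are group means. The share is 23.1% to 26.6% in mutant vehicle and 12.8% to 14.7% in mutant B12, while wild-type replicate 1, at 21.4%, lies far from the other wild-type libraries.

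Among known regulators of the lysosomal lipases and their signal, the calls in mutant vehicle were all higher than in wild type. Of 19 tested, 7 rose and 0 fell (median log2 0.29), so that 36.8% were called, beside 36.6% of all genes (18.3% in each direction). *nhr-49* rose by log2 1.01 ± 0.08 (edgeR adjusted p = 1.40e-05), *nhr-80* by 0.99 ± 0.12 (0.000215) and *hlh-30* by 0.37 ± 0.07 (0.00312). *skn-1*, a stress and lipid regulator, rose by 0.70 ± 0.09 (adjusted p = 0.000165). With B12, 0 rose and 12 fell (median -0.36), or 63.2% called beside 46.4% of all genes (22.6% higher, 23.8% lower), among them *nhr-49* (-1.15 ± 0.08, adjusted p = 1.05e-05), *daf-16* (-0.70 ± 0.09, 0.000273) and *nhr-80* (-0.87 ± 0.12, 0.000367). Between mutant B12 and wild type 1 was higher and 3 were lower, or 21.1% called beside 13.4% of all genes. There *hlh-30* was at -0.05 ± 0.07 (edgeR adjusted p = 0.695) while *daf-16* had fallen (-0.72 ± 0.09, adjusted p = 0.000947). *mxl-3*, chosen after its values were seen because it encodes the known repressor, was at -0.28 ± 0.16 in mutant vehicle (adjusted p = 0.204) and lower in mutant B12 than in both other groups (-0.92 ± 0.16 against mutant vehicle and -1.20 ± 0.16 against wild type, edgeR adjusted p = 0.00120 for each).

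Of 9 tested lipid-binding protein genes, 5 rose and 1 fell in mutant vehicle (median 0.66; 66.7% called beside 36.6% of all genes). With B12, 1 rose and 3 fell (0.03; 44.4% beside 46.4%), and 2 were higher and 1 lower in mutant B12 than in wild type (0.10; 33.3% beside 13.4%). *lbp-8*, which encodes the carrier of the LIPL-4 lipid signal and is also counted among the regulators, rose by 0.99 ± 0.32 in mutant vehicle (edgeR adjusted p = 0.0337), where *lipl-4* had fallen. It fell with B12 (-2.62 ± 0.38, adjusted p = 0.000366) and was below wild type (-1.63 ± 0.39, edgeR adjusted p = 0.0206). *lbp-7* and *lbp-5* rose in mutant vehicle (1.33 ± 0.14 and 1.07 ± 0.14) and were higher in mutant B12 than in wild type too (1.36 ± 0.14 and 1.26 ± 0.14, edgeR adjusted p = 0.000161 and 0.000327).

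Other lipolysis genes also moved in both directions, with 5 of 13 higher and 2 lower in mutant vehicle (median 0.24; 53.8% called beside 36.6% of all genes). With B12, 5 were higher and 6 lower (-0.43; 84.6% beside 46.4%), and in mutant B12 against wild type 3 were higher and 2 lower (0.19; 38.5% beside 13.4%). *atgl-1*, the adipose triglyceride lipase of lipid droplets, rose by 1.34 ± 0.15 in mutant vehicle and fell with B12 (-1.14 ± 0.15, edgeR adjusted p = 0.000255), ending at 0.19 ± 0.15 against wild type (adjusted p = 0.462). *hosl-1*, the hormone-sensitive lipase gene, went the other way, at -1.43 ± 0.11 and then 0.48 ± 0.11 (edgeR adjusted p = 9.69e-06 and 0.00566). *fil-1*, a lipase gene induced by fasting, rose by 1.28 ± 0.23 in mutant vehicle and stayed above wild type with B12 (1.54 ± 0.23, edgeR adjusted p = 0.00198).

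In the lists of lysosome and autophagy genes most calls were higher in mutant vehicle than in wild type, and most were lower with B12. Of 30 tested genes for lysosomal membrane proteins and hydrolases, 12 rose and 5 fell in mutant vehicle (median 0.33; 56.7% called beside 36.6% of all genes), and 5 rose and 11 fell with B12 (-0.21; 53.3% beside 46.4%). *gba-1*, a glucocerebrosidase gene, was at 1.27 ± 0.13 and then -0.96 ± 0.13, and *lmp-1*, a lysosomal membrane protein gene, at 0.72 ± 0.11 and then -0.98 ± 0.11 (edgeR adjusted p from 5.24e-05 to 0.000817). *hex-1*, a hexosaminidase gene, had the opposite signs, at -0.77 ± 0.11 and 0.45 ± 0.11 (adjusted p = 0.000513 and 0.00753). Of 21 subunits of the V-ATPase, the pump that acidifies the lysosome, 9 rose and 1 fell in mutant vehicle (median 0.23; 47.6% called), and 2 rose and 11 fell with B12 (-0.28; 61.9% called). *vha-6*, the intestinal subunit and also one of the intestine markers, was at 0.45 ± 0.10 and -0.52 ± 0.10 (edgeR adjusted p = 0.00623 and 0.00207).

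Of 27 autophagy genes, 18 rose and 1 fell in mutant vehicle (median 0.36), and 0 rose and 19 fell with B12 (-0.54), with 70.4% called in each, beside 36.6% and 46.4% of all genes. *sqst-1*, the cargo receptor of selective autophagy, was at 1.96 ± 0.12 and -2.21 ± 0.12 (edgeR adjusted p = 1.42e-06 and 2.29e-06). Between mutant B12 and wild type 0 of the 27 were higher and 3 lower (median -0.14, 11.1% called). Of 21 V-ATPase subunits 1 was higher and 0 lower (-0.06, 4.76% called), and 6 of 30 lysosomal genes were higher and 2 lower (-0.10, 26.7% called). In that comparison 13.4% of all genes were called, 7.28% higher and 6.13% lower. The *lipl* counts in that comparison, given above, were 3 higher and 3 lower of 7.

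Of 14 genes known to respond to fasting, 9 rose and 1 fell in mutant vehicle (median 0.54), and 2 rose and 8 fell with B12 (-0.61), with 71.4% called in each, beside 36.6% and 46.4% of all genes. *cpt-3*, a carnitine palmitoyltransferase gene, was at 3.93 ± 0.27 and -3.84 ± 0.27 (edgeR adjusted p = 3.54e-06 and 8.22e-06), and *hacd-1*, a hydroxyacyl-CoA dehydrogenase gene, at 1.78 ± 0.14 and -1.62 ± 0.14 (8.84e-06 and 2.26e-05). *cyp-35B1*, a cytochrome P450 gene, had the opposite signs, at -2.37 ± 0.25 and 2.23 ± 0.25 (5.96e-05 and 9.63e-05). Between mutant B12 and wild type 2 of the 14 were higher and 3 lower (median -0.01), or 35.7% called beside 13.4% of all genes. The 19 intestine markers had medians of 0.41 in mutant vehicle, -0.49 with B12 and -0.08 between mutant B12 and wild type, and so shared the signs of the regulator, lysosomal, V-ATPase, autophagy and fasting lists in each comparison. The part of the intestine level in these lists was not tested.

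**Figure D4:**
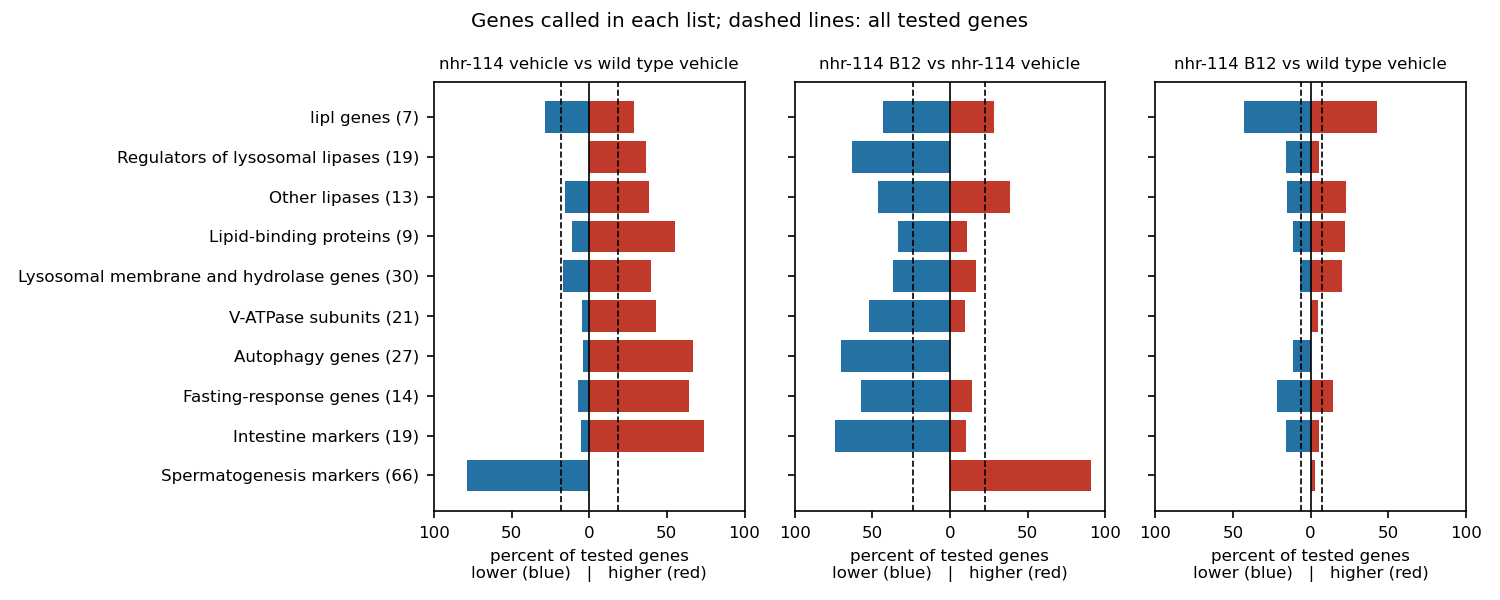
Percent of the tested genes of each list (number tested in parentheses) called higher (red, to the right) or lower (blue, to the left) in each comparison; dashed lines are the percentages over all 14795 tested genes. In the right panel the *lipl* genes are called in both directions, with 3 higher and 3 lower of 7, while the V-ATPase list has 1 call and the autophagy list 3.

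For each tested member the 3 genes of most similar profile were taken among 6427 or 6428 named genes with a mean of at least 5 CPM. Similarity was the root mean square difference of log2 CPM over the 9 libraries, with each profile centred on its own mean. Nearest to *lipl-5* were *gst-7* (0.224), *cbs-1* (0.228) and *nnt-1* (0.228), and nearest to *lipl-4* were *rnf-145* (0.208), *farl-11* (0.215) and *rips-1* (0.253). *rnf-145* (0.272) was also among the nearest to *lipl-3*, with *srdh-1* (0.258) and *mthf-1* (0.272). *lipl-1* had more distant neighbours, *clec-258* (0.407), *gst-10* (0.417) and *best-21* (0.446), as did *lipl-2*, with *nlp-34* (0.472), *clec-229* (0.589) and *cnc-4* (0.651).

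*lipl-6* lay nearest to *sym-2* (0.108), *strm-1* (0.131) and *dpy-9* (0.139), and *lipl-7* to *mrpl-32* (0.0636), *clik-1* (0.0708) and *dre-1* (0.0721). A gene that varies less is closer to others by this measure. The SD of log2 CPM over the 9 libraries was 0.181 for *lipl-7* and 0.518 for *lipl-6*, beside 1.2 for *lipl-1* and 1.60 for *lipl-2*. *lipl-3* and *lipl-4* averaged under 5 CPM and were therefore not candidates for any other member.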

How the data were processed

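Per the labels' protocols, RNA was extracted with TRIzol, libraries were made with an NEBNext Ultra kit and paired ends were sequenced. Reads were quantified with kallisto 0.46.0 against a WormBase reference (WS245), per the labels and the submitters' processing notes. The authors deposited estimated counts of 30939 transcripts per library, not normalized, and a series table of CPM per gene, per the file headers and the values. Transcript lengths and effective lengths, also deposited, were used for TPM.

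Estimated counts were summed per gene (20444 genes) and rounded. Names and coordinates came from the WBcel235 annotation, which matched 20165 genes; the other 279 held 0.165% of counts. Of 14163 genes compared, 99.7% were within 1% of the deposited CPM. edgeR 4.0.16 in R 4.3.3 was used with filterByExpr, TMM scaling and a robust quasi-likelihood fit of all 9 libraries, and p-values were adjusted by the Benjamini-Hochberg method over 14795 genes, with calls under 0.05. The SE is the size of the log2 fold change divided by the square root of F. Levels per gene are TMM-normalised CPM, or TPM where genes are compared.

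The members and the gene lists were chosen with earlier results of these data known. Genes named are all 8 members, *nhr-114*, up to 4 members of each list with the smallest adjusted p in the first or second comparison, and the 3 nearest profiles. Alternatives were upper quartile and RLE scaling, the omission of the filter, a filter of 5 CPM in 3 libraries, DESeq2 1.42.0, fits of 6 libraries, a replicate block, a spermatogenesis covariate, limma 3.58.1 on log2(deposited CPM + 1), length-scaled counts, and each library left out. The intestine covariate and the transcript fit were added after seeing the data. Permutation tests used Python 3.11.15 with scipy 1.17.1. Protein and promoter sequences were not analysed here.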

Additional observations from a re-analysis of the deposited data

How the results depend on the processing

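Of 417 recalculated fold changes of single *lipl* genes, 376 kept their direction and their side of the threshold, 34 lost their call and 7 changed sign. Among 60 recalculated counts of called members 53 were within 1.5 times the reported count. The order by TPM was the same by RPKM in all 3 groups. With the gene lengths used, RPKM is in effect TPM times a constant of each library, so that order is no separate check. Counts moved under both tissue covariates: mutant vehicle against wild type had 1 call with either, and B12 against mutant vehicle had 1 with the spermatogenesis level and 0 with the intestine level. Calls over all genes fell too, from 5422 to 635 and 186 and from 6866 to 138 and 39. In mutant vehicle *lipl-2* was at log2 2.25 and 1.56 with these covariates (reported 2.61). There *lipl-3* was at -1.74 and -2.23 (-1.85), and *lipl-4* at -1.62 and -2.06 (-1.77). The SE of *lipl-3* went from 0.294 to 0.661 and 0.918, and the part of either tissue could not be separated. Leaving out 1 library gave 4, 2 to 5, and 5 to 6 calls in the 3 comparisons. Sign changes in mutant vehicle against wild type were *lipl-1* (-0.65 with the spermatogenesis level, -1.05 with the intestine level, -0.12 to 0.42 without 1 library) and *lipl-6* (0.43 with the intestine level, -0.25 to 0.19 without 1 library). With B12 they were *lipl-5* (0.57) and *lipl-7* (-0.0605), both with the intestine level, and ZK6.7a (-0.22 to 0.0094 without 1 library). The cause was not tested. The filter of 5 CPM left 6 members tested, without *lipl-3*. In mutant B12 against wild type 54.3% of calls over all genes were higher, and 42.7% with limma on the deposited CPM. Replicate numbers did not pair the libraries (correlations of deviations -0.22 to 0.37 in same-numbered pairs, -0.42 to 0.27 in the others), and the replicate block ended 1 *lipl* call, that of *lipl-6* in mutant B12 against wild type (-0.90, edgeR adjusted p = 0.0755). Depth limits *lipl-3* most, at 6 to 20 counts in each mutant library, and leaves *lipl-8* below detection.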
